A study of Mus musculus with 10 samples.

Results

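The livers described here are the 4 control livers of a mouse study, titled rtTA 1 to rtTA 4, and they make up 4 of its 10 arrays. They were taken by their titles, and none of the 6 shRNA arrays entered any value. Each liver came from a male Rosa26-rtTA mouse of 4 weeks of age. These mice carry rtTA, a doxycycline-dependent transcription factor expressed from the Rosa26 locus, without a hairpin. Their dams ate doxycycline chow (625 mg/kg) on embryonic days 0 to 12.5, the window in which the hairpin littermates had Sod2 knocked down. The controls were thus exposed to the drug in utero as well. All 4 were littermate controls, with the cohort of shRNA 2 giving 3 and that of shRNA 1 giving 1, and the labels do not say which liver belonged to which cohort. The labels give no strain, and they call the same samples both 4-week and adult liver. Samples are only numbered and no label ties each to its own animal, so the spread below is that between samples and may be technical in part. RNA was extracted from 25 mg of rinsed liver and hybridised to an Affymetrix Mouse 2.0 ST array, which reads transcripts along their whole length.

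The liver makes most proteins of blood plasma, stores and releases glucose and fat, builds bile acids, and breaks down ammonia and drugs. Most of its RNA comes from hepatocytes, whose enzymes are zoned between the portal tract, where blood enters, and the central vein, where it leaves. At about this age mouse liver has left fetal expression behind and approaches puberty. Growth hormone pulses, sex hormones, feeding, inflammation and the circadian clock are all known to set liver transcripts in the adult.

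Values are log2 array signals for each transcript cluster (probes that read the same transcript region), and a difference of 1 is 2-fold. Of 41345 clusters, 23521 carried 1 gene symbol, and they represented 22180 genes. Array medians lay between 4.08 and 4.17. Pairs of livers correlated across these genes at r = 0.991 to 0.993, where genes are not independent replicates. Livers 2 and 3 were the closest pair, with 39 genes at least 2-fold apart, and livers 2 and 4 the most distant, with 91. Because probes bind with different affinity, a rank of genes here is a rank of array signal and not of transcript number.

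Background was read from 1390 olfactory and vomeronasal receptor genes, the odorant and pheromone sensors of the nose, which liver is not known to use. Their median level was 2.59 and the 95th percentile of their means was 4.07. A gene counted as above background where each of the 4 livers exceeded that limit, which held for 12144 of 22180 genes (54.8%). Of the receptor genes themselves, 46 (3.31%) passed. The receptor genes with the highest means, picked after their values were seen, were Vmn1r233 at 11.39 ± 0.23 (SD, n = 4) and Olfr1034 at 8.11 ± 0.38. The other cluster of Vmn1r233 on the array averaged 2.51, below the limit. A further 1770 genes exceeded the limit in 1 to 3 livers, and 8266 in none.

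**Figure D1:**
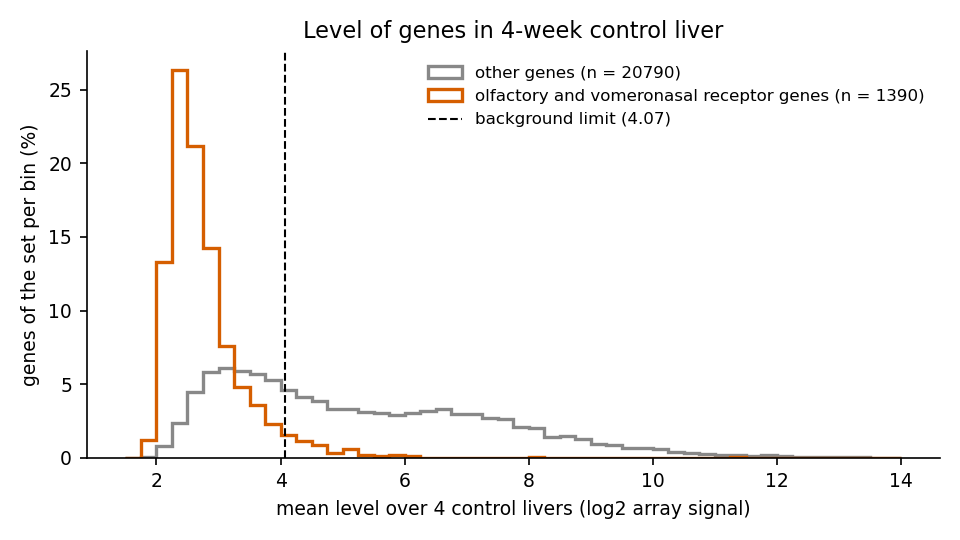
Mean log2 array signal over the 4 control livers, as the percentage of 20790 other genes (grey) and of 1390 receptor genes (orange) in each bin of 0.25. The dashed line is the background limit of 4.07, and most receptor genes lie to its left while the other genes reach 13.75.

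Secreted plasma proteins and mitochondrially encoded respiratory subunits stood at the top of the order. Among the 20 genes with the highest mean, 7 were genes of mitochondrial DNA and most of the rest encode plasma proteins. Alb, which encodes serum albumin, the main carrier protein of plasma, ranked 1 of 22180 and read 13.76, 13.72, 13.72 and 13.78 in livers 1 to 4 (13.75 ± 0.03, SD, n = 4). Mup3, a major urinary protein that carries pheromones, followed at 13.64 ± 0.05 and Ahsg, the plasma glycoprotein fetuin-A, at 13.62 ± 0.02. ND4, a complex I subunit encoded by mitochondrial DNA, stood at 13.60 ± 0.04. All 4 livers gave these genes almost the same signal. The brightest cluster of each array read 13.72 to 13.78, so these genes sit at the upper end of the scale. Whether signal is compressed there was not tested.

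The remaining genes of this top set covered transport, clotting, lipoproteins and respiration. Ttr, the thyroxine and retinol carrier transthyretin, reached 13.40 ± 0.02, and the fibrinogen chains Fgb and Fgg reached 13.36 ± 0.04 and 13.33 ± 0.05. The lipoprotein proteins Apoa2 (13.32 ± 0.04) and Apob (13.20 ± 0.03), the protease inhibitors Pzp (13.20 ± 0.02) and Serpina1c (13.19 ± 0.05), and the haem scavenger Hpx (13.02 ± 0.16) were also among them. Cyp2e1, the ethanol-oxidising cytochrome of pericentral hepatocytes, was at 13.18 ± 0.08, and B2m, the light chain of class I antigen-presenting molecules, at 13.18 ± 0.02. The other mitochondrial genes of the set, ND3, CYTB, COX1, ND5, ND1 and ND4L, lay between 13.09 and 13.32.

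The Alb promoter is shown because Alb heads the order and because HNF1, a liver transcription factor, is known to act there. The 250 bases before its start, from RefSeq (GRCm38.p6, chr5:90460620-90460869, plus strand), are printed 5′ to 3′ with the HNF1 core GTTAAT, searched on both strands, in capitals.
Alb: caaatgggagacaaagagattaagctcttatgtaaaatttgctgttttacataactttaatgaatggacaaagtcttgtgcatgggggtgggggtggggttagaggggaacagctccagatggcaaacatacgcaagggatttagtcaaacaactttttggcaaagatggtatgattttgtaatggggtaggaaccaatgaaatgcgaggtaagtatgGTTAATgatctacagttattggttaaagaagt
The core began 32 bases before the start. Of the 10 genes of highest level encoded in the nucleus, 9 had a promoter in the RefSeq table and 4 held the core, namely Alb, Fgb, Pzp and Serpina1c. Of all 32851 promoter windows of this length, 6.43% held it. A match is a description of letters and not of a bound site.

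Genes of the known secretory work of the liver filled the top of the order. Of 28 measured carrier and transport proteins of plasma, 27 were above background and 25 lay within the highest 5.0% of all genes, 1109 genes with means of at least 9.15. Their median level was 12.15. Of 21 coagulation and fibrinolysis genes, 17 lay within that top set, among them Plg, the precursor of the clot-dissolving enzyme plasmin (12.47 ± 0.03), and Serpinc1, the thrombin inhibitor antithrombin (12.33 ± 0.01). Of 24 complement genes 16 did, led by Vtn, the complement and adhesion protein vitronectin, at 12.83 ± 0.05. Of 17 apolipoproteins 11 did.

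Metabolic enzymes were nearly as prominent. For urea cycle and amino acid breakdown, 34 of 42 genes lay in the top set, led by Cps1, which fixes ammonia for the urea cycle (12.84 ± 0.03). For fatty acid synthesis 19 of 27 genes did, led by Scd1, the stearoyl-CoA desaturase (12.59 ± 0.08). Bile acid synthesis and transport had 20 of 30, with the bile salt importer Slc10a1 at 12.24 ± 0.07. Drug-metabolising cytochromes and conjugating enzymes had 43 of 77, with Cyp2a12 at 12.80 ± 0.03 and the carboxylesterase Ces1c at 12.70 ± 0.08. Glucose and glycogen genes had 17 of 27, with Pck1, the rate-limiting enzyme of gluconeogenesis, at 11.91 ± 0.21. Mid-level lists included liver transcription factors (median 8.18), where Hnf4a, the master regulator of hepatocyte genes, stood at 10.14 ± 0.07 and Cebpa at 10.01 ± 0.21.

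The genes of oxidant defence included several of high level. Sod2, the mitochondrial superoxide dismutase that the study's hairpins target, read 10.38, 10.49, 10.33 and 10.33 in livers 1 to 4 (10.38 ± 0.08). The values of all 4 livers lay within 0.16. Cat, the peroxisomal catalase, stood at 12.96 ± 0.08 and the glutathione peroxidase Gpx1 at 11.86 ± 0.10. The cytosolic dismutase Sod1 read 12, 11.91, 11.93 and 12.17. All 25 measured superoxide and peroxide defence genes were above background, beside 54.8% of all genes. None was at least 2-fold apart between livers, and a share of 1.92% over all genes above background leaves that count near what 25 genes would hold. Nnt, the mitochondrial transhydrogenase that some mouse strains lack, read 7.88, 8.06, 7.74 and 8.15. Nuclear genes of complex I (median level 8.25) and of complexes II to V (9.13) also had no member 2-fold apart, among 31 and 36 above background.

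**Figure D2:**
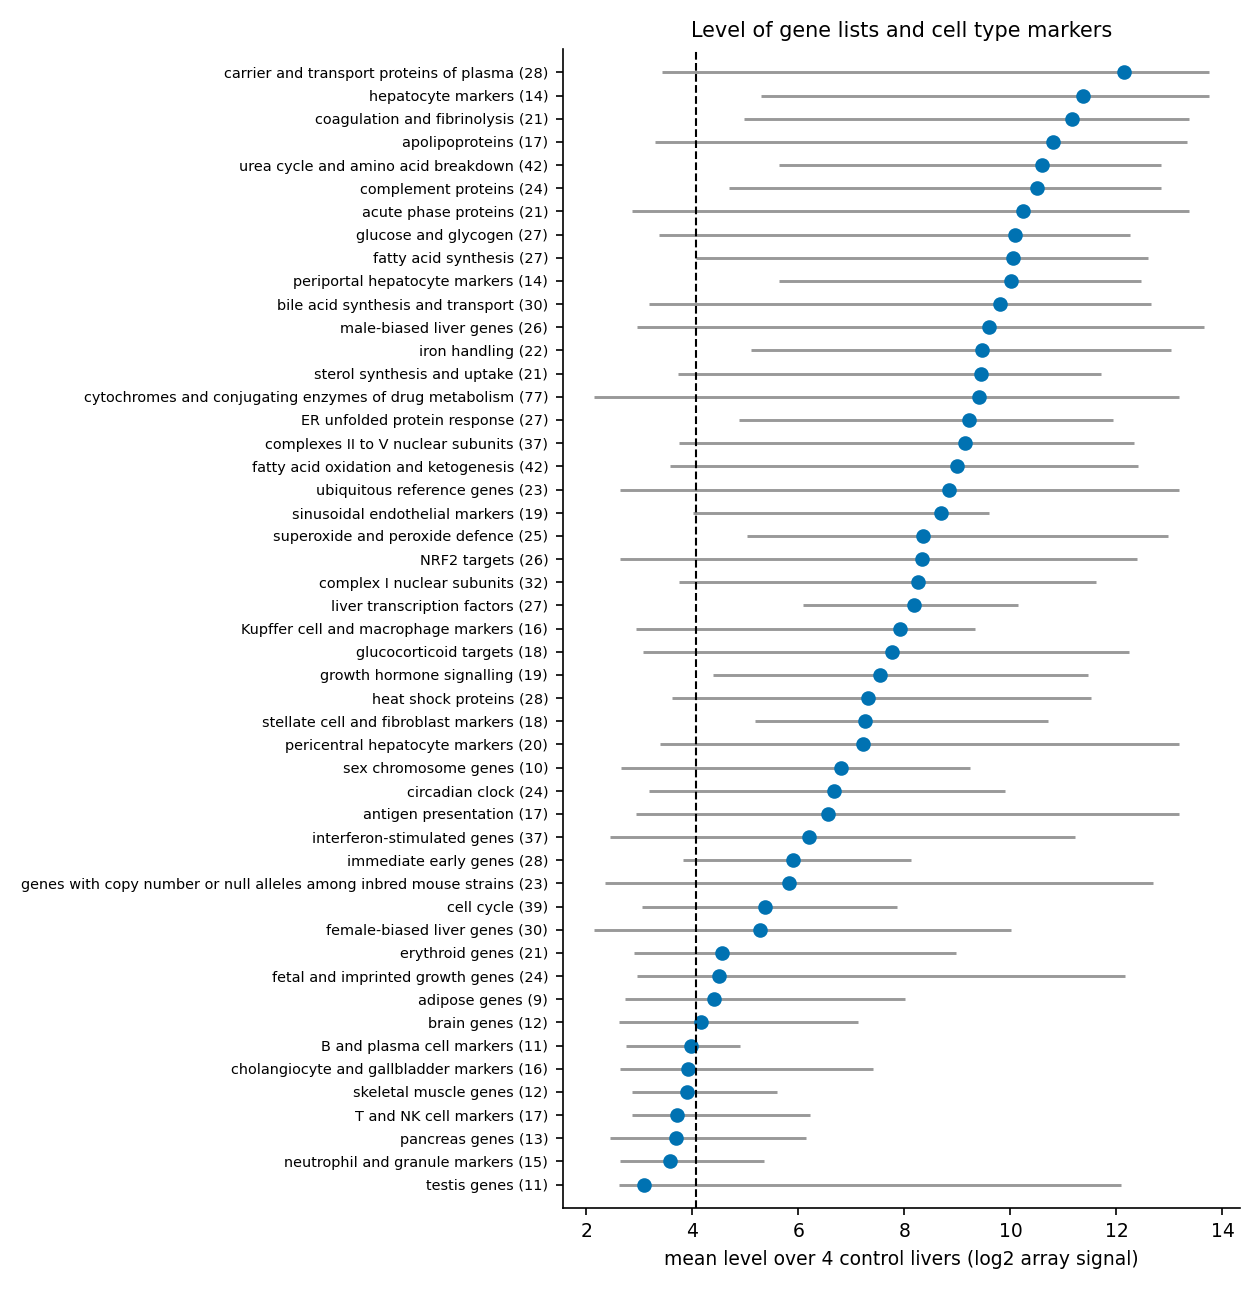
Mean log2 array signal over the 4 control livers for the members of each gene list and marker list, with the number of measured genes in brackets. Points are medians, lines run from the lowest to the highest member and the dashed line is the background limit; plasma carriers (12.15) and hepatocyte markers (11.37) lie at the top, and testis genes (3.09) and neutrophil markers (3.57) at the bottom.

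Markers of hepatocytes matched the labelled tissue, and other resident cells were visible too. All 14 measured hepatocyte markers were above background, with a median level of 11.37. Over all genes, the share to set beside this and the counts below was 54.8%. The lowest of them were Serpina1b, 1 of several near-identical alpha-1 antitrypsin genes, at 5.30 ± 0.10 and Ass1, a urea cycle enzyme, at 5.64 ± 0.82. Ass1 was read by 1 cluster, and whether this cluster reads its main transcript was not tested. Kupffer cell and macrophage markers were above background in 14 of 16 genes, with the complement component C1qb at 9.34 ± 0.20 and the Kupffer cell lectin Clec4f at 9.15 ± 0.09. Sinusoidal endothelial markers passed in 18 of 19, with the lectin Clec4g at 9.59 ± 0.17 and the scavenger receptor Stab2 at 9.05 ± 0.09. Stellate cell and fibroblast markers passed in 18 of 18, with the matrix protein Dcn at 10.71 ± 0.10 and the vitamin A-storing enzyme Lrat at 8.51 ± 0.29. In whole tissue, fewer cells of a type and less RNA per cell cannot be told apart.

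Markers of lymphocytes, neutrophils and duct cells were mostly at background. Only 4 of 17 T and NK cell markers, 3 of 11 B and plasma cell markers, 3 of 15 neutrophil markers and 4 of 16 cholangiocyte and gallbladder markers were above the limit in every liver. Ccl5, a chemokine of T and NK cells, was the highest T and NK cell marker at 6.21 ± 0.19. Erythroid genes, which fetal liver uses while it makes blood, had a median level of 4.56, with 12 of 21 above background, a share near the 54.8% of all genes. Markers of other tissues were low apart from single genes. Of 11 testis genes 1 was above background, Odf1, a sperm tail protein, at 12.09 ± 0.05, while its other cluster on the array averaged 3.68. Syt1, a synaptic vesicle protein, was the highest of 12 brain genes at 7.13 ± 0.16.

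Sex chromosome genes matched the male label. Xist, the RNA that silences an X chromosome in female cells, read 2.84, 3.19, 2.61 and 3.49 and was below the limit in every liver. The Y-linked genes Eif2s3y, Uty and Kdm5d averaged 8.14 ± 0.11, 7.12 ± 0.08 and 6.50 ± 0.18, above the limit in every liver. The Y-linked genes Usp9y (2.65 ± 0.14) and Zfy2 (3.31 ± 0.32) did not exceed it in any liver, and Sry, the testis-determining gene, exceeded it in 2 livers with values of 4.67, 4.01, 4.27 and 4.02. The X-linked partners Ddx3x, Kdm5c and Kdm6a averaged 9.23 ± 0.06, 8.19 ± 0.10 and 7.77 ± 0.20.

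Several fetal genes were near or below the background limit, and others were well above it. Afp, the fetal counterpart of albumin, read 4.71, 4.17, 4.44 and 4.43, just above the limit of 4.07. The fetal growth factor Igf2 read 4.67, 4.24, 4.15 and 4.12. Both were thus near background in every liver. The imprinted genes Dlk1 (3.51 ± 0.32) and Meg3 (3.54 ± 0.19) and the fetal growth gene Gpc3 (4.15 ± 0.12) did not pass in every liver. Nor did Lin28b, a brake on developmental timing (2.96 ± 0.14), Tspan8, Bex1 and Bex4. Plagl1, Cdkn1c, Ndn, Bex2, Lin28a, Igdcc4 and Hmga2 passed with means from 4.26 to 4.94.

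Other members of the fetal list stayed well above the limit. The amino acid transporter Slc38a4 averaged 12.17 ± 0.12, the cyclin Ccnd1 7.86 ± 0.31, the receptor Igf2r 7.62 ± 0.07 and the RNA-binding protein Igf2bp3 7.29 ± 0.12. The imprinted genes Mest, Peg3 and Grb10 averaged 6.45 ± 0.11, 6.42 ± 0.34 and 5.89 ± 0.18. Dcn, given above among the stellate cell markers, is on this list as well. In all, 17 of 24 measured fetal and imprinted genes were above background, beside 54.8% of all genes. Igf1, the postnatal growth factor that liver secretes under growth hormone, stood at 10.61 ± 0.24, and Ghr, the growth hormone receptor, at 9.14 ± 0.10.

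The spread between the 4 livers was small for most genes. Over the 12144 genes above background, the median SD was 0.15 and the median range, the highest minus the lowest liver, was 0.33, a 1.26-fold difference. A range of at least 1, called wide here, was found in 233 genes (1.92%). The number of wide genes was 131 without liver 4 and 143 without liver 1. Of the 233, 23 reached a range of 2 and 3 reached a range of 3. The genes just inside and just outside that threshold had ranges of 1.00 and 0.999. The median SD was 0.17 in the 2429 genes of lowest level and 0.11 in the 2429 of highest level, which held 30 and 39 wide genes.

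The carrier, coagulation, complement and apolipoprotein lists held no wide gene, where 1.92% of all genes above background were wide. Finding none in lists of this size is near that share. The acute phase proteins, also of plasma and given below, held 4 wide genes of 20. None was found among 27 carrier proteins, 21 coagulation genes, 24 complement genes and 16 apolipoproteins above background, whose median ranges were 0.14, 0.12, 0.28 and 0.22, beside 0.33 over all genes and 0.26 over the 2429 genes of highest level. The gene of smallest spread with a mean of at least 8 was Fbp1, the gluconeogenic enzyme fructose bisphosphatase, which read 11.71, 11.71, 11.71 and 11.72. The other 9 of the 10 steadiest genes were Senp6, Serpinc1, Rac1, Cfl1, Huwe1, Itgb1, Birc6, Sucla2 and Sbds. Their ranges were 0.04 or less. They are genes of protein modification, clotting control, the cytoskeleton, adhesion, mitochondrial metabolism and ribosome assembly. Among ubiquitous reference genes, Actb, the cytoplasmic actin often used to scale other genes, had a range of 0.46 and Gapdh, a glycolytic enzyme, one of 0.17.

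**Figure D3:**
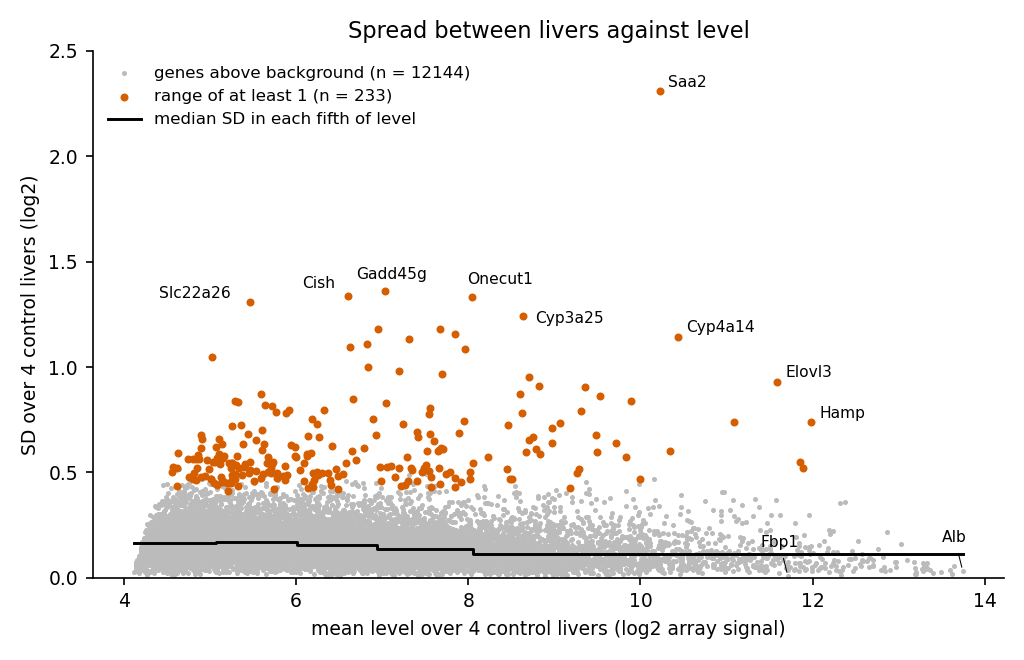
SD over the 4 control livers against mean level, both in log2 array signal, for 12144 genes above background (grey), with the 233 genes of range 1 or more in orange and the median SD in each of 5 bands of level as a black line. Saa2 stands alone at an SD of 2.31, while Alb and Fbp1 lie near 0.

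The genes of largest SD had various known roles. Saa2, a serum amyloid A of the acute phase, read 11.76 and 12.27 in livers 1 and 2 but 9.69 in liver 3 and 7.20 in liver 4. Liver 2 was thus 33.6-fold above liver 4. Gadd45g, a growth arrest and stress gene, read 6.55, 5.40, 7.67 and 8.52, and Onecut1, a transcription factor of hepatocytes and bile ducts, read 7.44, 6.53, 8.63 and 9.57. In both, liver 4 was highest and liver 2 lowest, 8.73-fold and 8.24-fold apart. Cish, an inhibitor of cytokine signalling, read 6.50, 4.75, 7.60 and 7.57. Slc22a26, an organic anion transporter, stood at 7.35 in liver 4 against 4.86, 5.26 and 4.39 in livers 1 to 3.

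The next genes by SD showed other orders of the livers. Cyp3a25, a drug-metabolising cytochrome, was low in liver 3 alone (6.81) against 9.28, 9.53 and 8.91 in livers 1, 2 and 4. Cdkn1a, a brake on the cell cycle, was low in liver 1 alone (6.16) against 8.46, 8.73 and 8.04. Cyp26a1, which degrades retinoic acid, read 6.48, 5.07, 4.20 and 4.32 and was highest in liver 1. Rgs16, a regulator of G protein signalling, read 9.78, 9.21, 7.65 and 8.64. Depp1, a fasting-responsive gene, read 9.38, 9.51, 7.45 and 8.47, and G0s2, an inhibitor of fat breakdown, read 7.31, 9.03, 6.75 and 7.69. Liver 3 was thus the lowest in 5 of these 6 genes and the highest in Cdkn1a, but the 6 were not picked by SD alone. Myc, Lcn2, Cyp4a14, Bcl6 and Orm2, given below, had a larger SD than Cyp26a1, and another liver was lowest in each. Over all wide genes liver 3 was lowest in 22.3%. Clec2h, Gbp11 and Slc41a2 had ranges of 2.39, 2.33 and 2.29.

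Across the 233 wide genes, liver 4 was the highest in 93 (39.9%), liver 2 in 53 (22.7%), liver 3 in 48 (20.6%) and liver 1 in 39 (16.7%). Liver 1 was the lowest in 72 (30.9%), liver 4 in 55 (23.6%), liver 2 in 54 (23.2%) and liver 3 in 52 (22.3%). Over all genes above background, livers 1 to 4 were highest in 22.4%, 27.5%, 27.3% and 22.9% and lowest in 28.0%, 20.2%, 19.6% and 32.2%. A liver separated by at least 1 from the nearest other liver was found in 48 genes (0.395%). It was liver 4 in 15 of them, liver 1 in 15, liver 2 in 11 and liver 3 in 7. All 24 possible orders of the livers occurred among the wide genes. The most frequent, with 19 genes each, were liver 4 above 3 above 1 above 2, as in Gadd45g, Onecut1 and Myc, and liver 4 above 2 above 3 above 1, as in Cyp4a14.

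**Figure D4:**
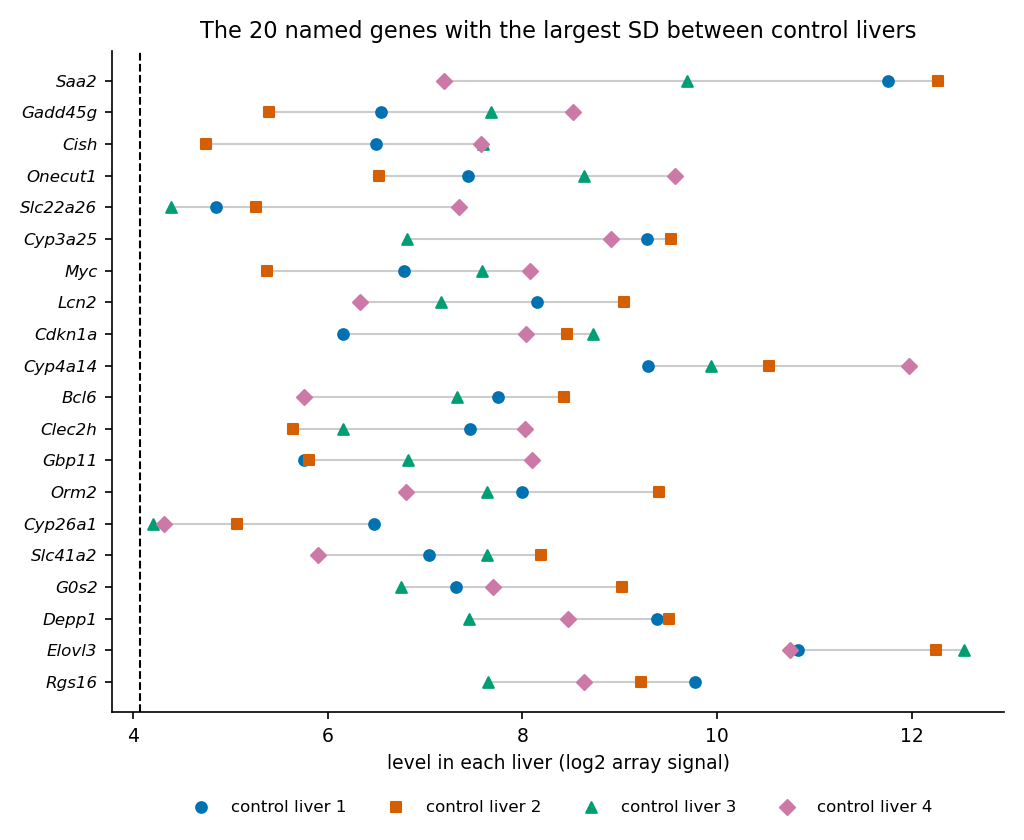
Level in each control liver (log2 array signal) of the 20 named genes with the largest SD, 1 row per gene, with a symbol and colour per liver and the background limit dashed. Saa2 spans 7.20 to 12.27, and liver 2 and liver 4 lie at opposite ends in several genes.

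Acute phase proteins, which hepatocytes secrete in response to inflammatory cytokines, ran high in liver 2 and low in liver 4. Of 20 members above background, 17 were highest in liver 2 and 14 were lowest in liver 4, beside 27.5% and 32.2% of all genes. Among other plasma protein lists, liver 4 was also lowest in 18 of 24 complement genes and 11 of 21 coagulation genes. It was lowest in 5 of 27 carrier proteins and 6 of 16 apolipoproteins. The 4 wide members were Saa2, Lcn2, Orm2 and Saa3 (4 of 20, beside 1.92% of all genes). Lcn2, the iron-siderophore binder lipocalin 2, read 8.15, 9.05, 7.17 and 6.34, and Orm2, an alpha-1 acid glycoprotein, read 8.0, 9.40, 7.63 and 6.80. Saa3 read 7.50, 7.50, 6.51 and 6.19. All 4 had the order liver 2, liver 1, liver 3, liver 4 from high to low, with livers 1 and 2 level in Saa3.

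Other acute phase proteins varied less but in much the same direction. Saa4 read 12.41, 12.64, 12.40 and 11.81. The haptoglobin gene Hp, on the iron list, read 12.96, 13.06, 12.87 and 12.55. The fibrinogen chains were nearly level, with ranges of 0.11 (Fga), 0.09 (Fgb) and 0.10 (Fgg). The mean deviation of the list from its 4-liver mean was 0.40 in liver 2 and -0.47 in liver 4. Without liver 4, the value of liver 2 was 0.25. Neutrophil markers, another source of Lcn2, had means from 2.63 to 5.36, with 3 of 15 above background. The mean deviations of livers 1 to 4 over those 3 were 0.13, -0.08, 0.10 and -0.15. The part of neutrophils in the Lcn2 values was not tested. Saa2 and Orm2 belong to families of near-identical genes, whose signals the array may not tell apart.

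Genes that differ between male and female liver separated liver 4 from the others. Of 24 male-biased genes above background, 18 were lowest in liver 4, beside 32.2% of all genes, and so were all 7 wide ones, beside 23.6% of all wide genes. Of 17 female-biased genes, 10 were highest in liver 4, beside 22.9% of all genes, including 5 of the 6 wide ones, beside 39.9% of all wide genes. With the 99th percentile of the receptor genes as the limit, 6 were highest in liver 4. The mean deviation of liver 4 was -0.37 over the male-biased and 0.34 over the female-biased list. Puberty in mice falls near this age, and these lists are set in the adult by the pattern of growth hormone release. In liver 4 the Y-linked genes Eif2s3y, Uty and Kdm5d read 8.01, 7.16 and 6.65, against 8.11 to 8.28, 6.99 to 7.18 and 6.24 to 6.60 in the other livers. Without liver 4, 2 male-biased and 1 female-biased genes were wide, but leaving out the liver at an end narrows a range by construction.

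Among male-biased genes, Elovl3, which lengthens very long fatty acids, read 10.83, 12.25, 12.53 and 10.75, so that livers 1 and 4 lay below livers 2 and 3. Cyp4a12a, a male-specific fatty acid hydroxylase, read 8.68, 9.42, 9.04 and 7.85, and Cyp7b1, an oxysterol hydroxylase, read 9.48, 9.81, 10.09 and 8.54. In both, liver 4 was lowest. Gna14, a G protein subunit, read 5.10, 6.17, 6.02 and 4.86. The pheromone carrier Mup20 read 12.33, 12.37, 12.34 and 11.90.

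Among female-biased genes, Cyp2c69, a steroid and drug cytochrome, read 9.47, 9.58, 9.16 and 10.63, and Cyp3a44, a cytochrome of the same broad class, read 4.86, 5.74, 5.69 and 6.78. Liver 4 was highest in both, as in Slc22a26. Cyp2a4, a steroid hydroxylase, ran the other way, at 10.43, 9.61, 9.09 and 8.27. Cyp2b9, a female-biased cytochrome named after its values were seen, read 4.01, 5.95, 3.64 and 9.35. Its range of 5.71 exceeded that of Saa2, but livers 1 and 3 were below the background limit, so it is not among the 233. Hao2, a peroxisomal hydroxyacid oxidase chosen in the same way, read 3.73, 3.50, 3.27 and 5.50. In all, 118 genes that passed the limit in only some livers had a range of at least 1, with liver 4 highest in 46 of them. That share is near the 39.9% among the 233 wide genes, and the count is over all genes and not over female-biased ones. Cyp2a, Cyp2b, Cyp2c, Cyp3a, Cyp4a and Mup genes have near-identical neighbours and are uncertain as single genes.

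Growth hormone signalling held 5 wide genes of 19 (26.3%, beside 1.92% of all genes). Growth hormone acts through its receptor and STAT5, which induces the feedback inhibitors Cish and Socs2 within the pulse and represses Bcl6. Socs2 read 6.04, 6.87, 7.24 and 8.03. Bcl6, a transcriptional repressor, read 7.75, 8.42, 7.33 and 5.76, highest in liver 2 and lowest in liver 4. Cish was lowest in liver 2, and Socs2 was highest in liver 4. A second cluster of Cish read 5.13, 4.66, 5.47 and 5.85 and one of Socs2 read 5.02, 4.80, 5.72 and 6.58. Liver 2 was lowest and liver 4 highest in both of these clusters, whereas the brighter cluster was highest in liver 3 for Cish, narrowly above liver 4, and lowest in liver 1 for Socs2. Onecut1, given above, was also wide. Igfbp1, a binding protein of insulin-like growth factors that insulin lowers, was wide too and was low in liver 3 alone, at 8.13 against 9.75, 9.61 and 9.77. By contrast the range of Igf1 was 0.54 and that of Ghr 0.21.

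The Bcl6 promoter is shown because it held the STAT-type motif that the other wide genes of this list with a promoter in the table lacked. The letters TTCNNNGAA, the core of the element that STAT5 binds, were searched on both strands of the 250 bases before each start and are printed in capitals (RefSeq, GRCm38.p6, chr16:23981284-23981533, minus strand).
Bcl6: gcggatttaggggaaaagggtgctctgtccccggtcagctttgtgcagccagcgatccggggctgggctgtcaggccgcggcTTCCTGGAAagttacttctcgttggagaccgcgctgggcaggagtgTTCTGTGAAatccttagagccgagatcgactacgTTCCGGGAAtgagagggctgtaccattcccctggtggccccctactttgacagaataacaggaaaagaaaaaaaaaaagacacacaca
This start held 3 matches, and another Bcl6 start held 1. Of the 5 wide genes, 4 had a promoter in the table and only Bcl6 matched, against 7.02% of all windows. No match says only that the letters are not in this window.

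Clock genes had their wide members at an extreme in liver 1. The clock runs as a loop in which CLOCK and BMAL1, the product of Arntl, switch on their own repressors, so that Arntl and its targets peak at opposite times of day. Of 21 clock genes above background, 6 were wide (28.6%, beside 1.92% of all genes), and 5 of these were highest in liver 1, beside 16.7% of all wide genes. With the 99th percentile of the receptor genes as the background limit, 3 clock genes were wide. Arntl read 6.15 in liver 1 and 7.66, 7.66 and 7.50 in livers 2 to 4. Dbp, a clock output transcription factor, read 8.71 in liver 1 and 6.85, 7.38 and 7.27 in the others. For both genes liver 1 stood apart by at least 1, low in Arntl and high in Dbp.

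The other wide clock genes shared the direction of Dbp. Per3, a repressor of the loop, read 6.32, 4.56, 5.25 and 5.30. Ciart, another repressor, read 6.02, 5.05, 4.84 and 4.48. Usp2, a rhythmic deubiquitinase, read 6.98, 5.91, 5.96 and 5.67, and Wee1, a cell cycle kinase under clock control, read 5.81, 5.03, 4.74 and 4.57. Tef, a relative of Dbp, was also highest in liver 1, at 6.60 against 5.74 to 5.87. Without liver 1, none of the 21 clock genes was wide. Liver 1 was at an end in every wide clock gene, so leaving it out narrows each of their ranges by construction.

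The remaining clock genes had ranges under 1. Of all 21 above background, 12 were highest in liver 1, beside 22.4% of all genes. Those of smaller range with liver 1 highest were Tef, Per1 (7.13 ± 0.32), Hlf (7.24 ± 0.25), Bhlhe40 (8.97 ± 0.38), Cry2 (6.61 ± 0.16), Tspan4 (6.90 ± 0.37) and Nr1d2. Clock, the partner of Arntl, was lowest in liver 1, at 9.49 against 9.98 to 10.15. Nr1d1, a repressor of Arntl, read 8.55, 8.52, 8.36 and 8.58, and its relative Nr1d2 read 8.10, 7.77, 7.82 and 7.99. Nfil3 (6.78 ± 0.42), Leap2 (6.75 ± 0.29) and Rora (7.16 ± 0.04) were also lowest in liver 1. Cry1 (5.42 ± 0.32), Csnk1e (5.58 ± 0.08) and Lonrf3 (4.89 ± 0.26) had other livers at both ends. Npas2, a relative of Clock, read 3.81, 4.46, 4.76 and 4.82, and with Noct and Bhlhe41 it did not pass the background limit in every liver. The labels give no time of day for the collection.

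Promoters of Ciart and Per3 are shown because they held the clock motifs searched. The E-box CACGTG, bound by CLOCK and BMAL1, and the D-box form TTANNTAA, bound by Dbp and its relatives, were searched on both strands of the 250 bases before each start. They are in capitals in Ciart (E-box, chr3:95882229-95882478, minus strand) and Per3 (D-box, chr4:151044666-151044915, minus strand), both from RefSeq, GRCm38.p6.
Ciart: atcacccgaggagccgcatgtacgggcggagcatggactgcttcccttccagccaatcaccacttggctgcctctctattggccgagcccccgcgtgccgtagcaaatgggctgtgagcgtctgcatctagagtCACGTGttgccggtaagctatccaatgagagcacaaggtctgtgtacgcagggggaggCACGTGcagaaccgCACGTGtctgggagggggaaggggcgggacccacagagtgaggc
Per3: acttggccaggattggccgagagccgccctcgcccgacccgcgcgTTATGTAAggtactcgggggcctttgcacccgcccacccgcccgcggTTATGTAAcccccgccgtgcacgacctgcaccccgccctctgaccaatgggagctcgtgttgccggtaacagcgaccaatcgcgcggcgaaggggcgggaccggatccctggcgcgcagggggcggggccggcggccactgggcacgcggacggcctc
Ciart held 3 E-boxes and Per3 held 2 D-box forms. Of the 6 wide clock genes, 5 had a promoter in the table, and 1 of the 5 held each motif. Of all windows, 6.02% held the E-box and 5.43% the D-box form.

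Zonation markers differed in liver 1 as well. Of 18 pericentral markers above background, 16 were lowest in liver 1, beside 28.0% of all genes, and the mean deviation of liver 1 was -0.32. Of 14 periportal markers, 9 were highest in liver 1, beside 22.4%, with a mean deviation of 0.24. Rhbg, an ammonium transporter of the cells around the central vein, read 6.67, 7.67, 7.81 and 7.20, and Lgr5, a Wnt pathway receptor of the same cells, read 4.64, 5.42, 5.70 and 5.20. The other cluster of Lgr5 averaged 3.56, below the background limit, and was lowest in liver 3. Tbx3, a transcription factor of this zone, read 7.0, 8.05, 7.64 and 7.58. Liver 1 was lowest in all 3 of these wide members, beside 30.9% of all wide genes. Without liver 1 no pericentral marker was wide, but leaving out the lowest liver narrows each of the 3 ranges by construction. Glul, the pericentral glutamine synthetase, was less variable, at 11.17, 11.64, 11.62 and 11.42.

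On the periportal side, Upp2, a uridine phosphorylase, read 9.93, 9.02, 9.11 and 9.54, and Aldh1b1, a mitochondrial aldehyde dehydrogenase, read 7.24, 6.74, 6.46 and 6.69. Ass1, the only wide member, read 6.64, 5.34, 4.71 and 5.88. Its 1 cluster was dim, with a mean of 5.64 against a list median of 10.01, so its range may not be that of the main transcript. Arg1, the last urea cycle enzyme, read 11.64, 11.45, 11.41 and 11.45, and Cyp2f2, a periportal cytochrome, read 12.59, 12.52, 12.45 and 12.29. Liver 1 was thus the highest in each of these 5 genes, but not in every member. Of all 14 members, 9 were highest in liver 1, 2 in liver 2, 2 in liver 3 and 1 in liver 4. Which lobe each piece of 25 mg came from is not in the labels, and its part in the result was not tested.

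Fatty acid oxidation genes ran lowest in liver 1 and highest in liver 4. Of 40 members above background, 25 were lowest in liver 1 (beside 28.0% of all genes) and 18 highest in liver 4 (beside 22.9%). Wide members numbered 6 (15.0%, beside 1.92%), of which 5 were lowest in liver 1, beside 30.9% of all wide genes. Without liver 1, 3 members were wide, and without liver 4, 4 were. Cyp4a14, a fatty acid hydroxylase under the lipid sensor PPARα, read 9.29, 10.54, 9.94 and 11.97, 6.42-fold from liver 1 to liver 4. Acot1, an acyl-CoA thioesterase, read 5.65, 6.50, 6.36 and 7.18, and Cyp4a31 read 7.78, 8.37, 8.21 and 9.48. Fgf21, a hormone of fasting, differed in order, at 6.02, 7.50, 5.84 and 7.28. The core enzymes Acadm, Acaa2 and Hadh had ranges of 0.12, 0.13 and 0.22.

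Sterol and bile acid genes followed separate orders. Of 20 sterol synthesis and uptake genes above background, 13 were highest in liver 3, 11 were lowest in liver 4 and 8 were lowest in liver 1, and none was wide. Over all genes these shares were 27.3%, 32.2% and 28.0%, and 8 of 20 lies near the last of them. Without liver 1, 17 were lowest in liver 4. Mvd, an enzyme of the mevalonate pathway, read 6.19, 7.06, 6.86 and 6.19, and Hmgcs1, the HMG-CoA synthase, read 10.97, 11.41, 11.50 and 11.04. Livers 1 and 4 were lower than livers 2 and 3 in both. Cyp7a1, the rate-limiting enzyme of bile acid synthesis, read 9.16, 9.32, 10.07 and 11. Cyp8b1, which makes cholic acid, read 8.62, 9.63, 9.86 and 9.88. Nr0b2, a repressor of Cyp7a1 that bile acids induce, read 7.70, 7.87, 7.02 and 6.82. Livers 1 and 2 were thus low in Cyp7a1 and high in Nr0b2. Of 29 bile acid genes above background 4 were wide, beside 1.92% of all genes, and 1 was wide without liver 4.

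Iron, haem and stress genes gave a few wide members. Hamp, the iron hormone hepcidin, read 12.64, 11.13, 11.58 and 12.56, high in livers 1 and 4. Its near-identical neighbour Hamp2 read 9.63, 9.46, 9.02 and 9.53. Alas1, the rate-limiting enzyme of haem synthesis, read 9.63, 8.42, 9.56 and 10.53, lowest in liver 2. Asns, an asparagine synthetase induced by amino acid shortage, read 6.11, 5.56, 5.79 and 7.26, and Csad, a taurine synthesis enzyme, read 7.93, 8.67, 8.72 and 9.52. Myc, a growth transcription factor, read 6.78, 5.38, 7.58 and 8.08.

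Markers outside the hepatocyte also varied in single livers. Tff3, a mucosal trefoil peptide, read 8.45 in liver 1 and 7.03 to 7.08 in the others. The class II antigen-presenting genes H2-Ab1 and H2-Aa were highest in liver 4, at 8.91 against 7.45 to 7.69 and at 7.10 against 5.90 to 6.60. Marco, a scavenger receptor of macrophages, read 7.90, 7.01, 6.67 and 7.22. The skeletal muscle actin Acta1 read 6.89 in liver 4 against 5.09 to 5.20 in livers 1 to 3, and the muscle myosin Myh4, named after its values were seen, read 5.62 in liver 4 against 2.81 to 3.36. Ckm, the muscle creatine kinase, did not follow, at 4.59, 4.71, 4.41 and 4.64, and 4 of 12 skeletal muscle genes were above background. The mean deviation of liver 4 over those 4 genes was 0.50. Its part in the other values of liver 4 was not tested.

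**Figure D5:**
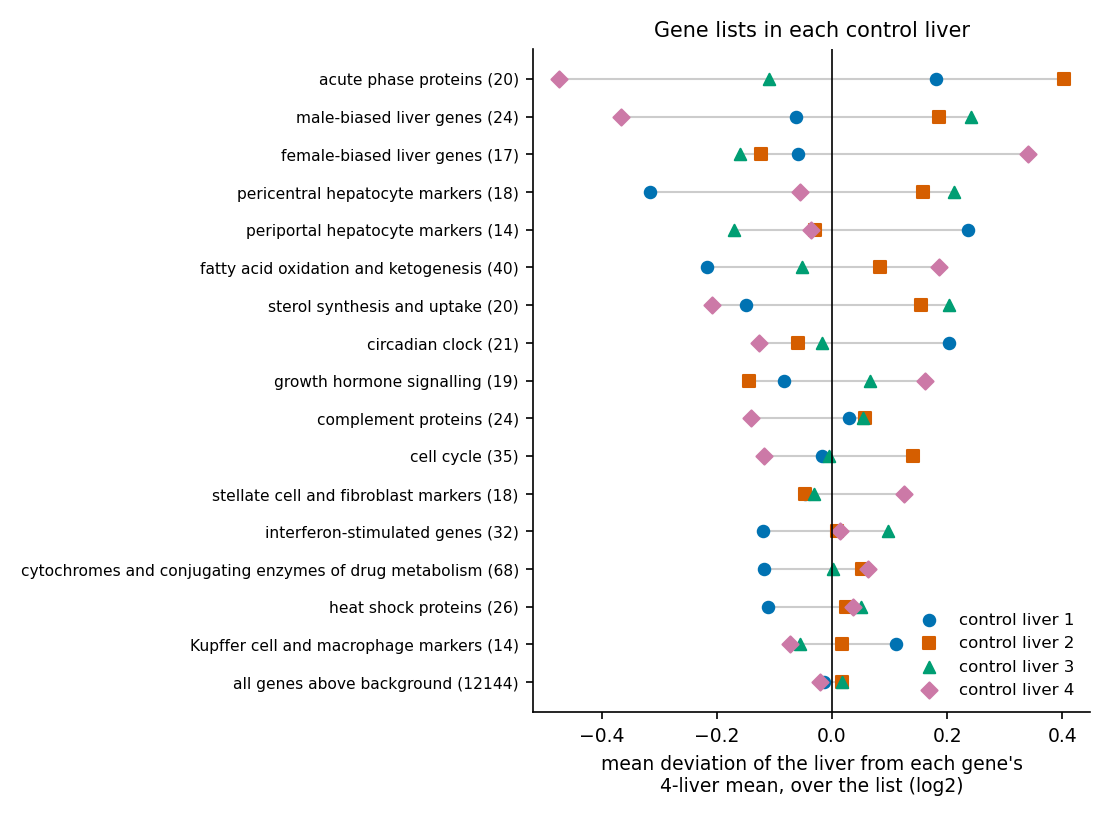
Mean deviation of each control liver from the 4-liver mean of each gene (log2), averaged over the members above background (number in brackets), for the 16 lists of at least 10 such members with the largest deviation and for all genes above background. Liver 4 is lowest in acute phase (-0.47) and male-biased genes (-0.37) and highest in female-biased genes (0.34), and liver 1 is lowest in pericentral markers (-0.32).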

How the data were processed

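Liver RNA of 10 samples was measured on Affymetrix arrays, and the 4 rtTA control samples were used here; the 6 shRNA arrays were not. The authors deposited 1 log2 value per transcript cluster and sample. Per the submitters' processing notes the tool was Affymetrix Expression Console; the version, background correction, normalization and build are not given in those notes or labels. Gene symbols came from the platform annotation and were checked through Entrez IDs, which matched 23328 clusters and changed 0 symbols. Clusters with several symbols (1814) or none (16010) were left out. For the 1082 genes with several clusters, the brightest cluster by mean was used.

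With 1 group there is no comparison between conditions, so no test between groups was run and no p-value is given. Dixon's ratio was used only to mark genes for a closer look. Means, SDs and ranges over 4 livers were computed in Python 3.11.15 with numpy 2.4.6 and pandas 2.3.3. The number of arrays limits the precision. The members and the 49 gene and marker lists were chosen with earlier results of these data known. The genes named were the 20 of highest mean, the 20 above background of largest SD, the 10 of smallest SD with a mean of at least 8, and per list the 4 of highest mean and the 4 of largest range. The sex chromosome, fetal and clock lists were named in full, and Sod2, Nnt, Igf1, Ghr, Hamp, Hamp2, Cyp7a1, Glul, Cyp2e1 and Cyp2f2 always. Predicted, unnamed, small noncoding and receptor genes were passed over in the first 3 sets. Genes outside the rule are marked as chosen after their values were seen. The counting of wide genes was tested on simulated data.

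Alternatives covered the normalization, the cluster kept, the background limit, the thresholds and each liver left out in turn.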

Additional observations from a re-analysis of the deposited data

Results flagged for a closer look

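In 12 of the 185 genes named, 1 liver lay far from the other 3, with a gap to its nearest neighbour, as a share of the whole range, above the 95% critical value for 4 samples (Dixon). Chance alone flags about 1 group in 20, and many of the genes were named for their large range. Liver 1 was the distant sample in Tff3 (0.965, high), Arntl (0.894, low), Cebpa (0.862, high), Tef (0.851, high) and Arg1 (0.841, high). Liver 4 was distant in Peg3 (0.945, high), Acta1 (0.934, high), Mup20 (0.912, low) and H2-Ab1 (0.832, high). Liver 3 was distant in Igfbp1 (0.899, low), Uty (0.848, low) and Zfy2 (0.836, high), of which Zfy2 was below the background limit. Several gaps are small in size: the range was 0.23 in Arg1 and 0.18 in Uty, against 1.64 in Igfbp1 and 1.81 in Acta1.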

How the results depend on the processing

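The number of genes above background and the median SD stayed within 1.5 times, or within the spread, under quantile normalization, median centring, the mean of a gene's clusters, other background limits and each liver left out. The number of wide genes, 233, was 139 with the 99th percentile of the receptor genes as the limit, 60 with a range of at least 1.5, 560 with a range of at least 0.8, and 1346 over every transcript cluster, of which 18878 were above background. It was 351 when at least 1 liver had to be above background, an alternative added after seeing the data. Leaving out each liver in turn gave 131 to 176 wide genes. The number of genes at which 1 liver stands apart was 48, was 454 with a gap of at least 0.5, and was 55 to 69 with a liver left out. Looser thresholds and fewer livers change these counts by construction. The list patterns were also recomputed under alternatives added after seeing the data, and no direction turned, but 4 patterns moved under other settings and 3 with a liver left out. With the 99th percentile limit, female-biased genes highest in liver 4 went from 10 to 6, with a mean deviation of 0.20 (female-biased liver genes: mean deviation of liver 4). Of 35 cell cycle genes above background, 16 were highest in liver 2, beside 27.5% of all genes, and with the 99th percentile limit 10 were. The number of wide members moved in 12 of 49 lists under other settings, among them the clock list, from 6 to 3, and in 21 with a liver left out. No paired analysis was possible because all samples belong to 1 group. With 4 arrays, signal near the background limit or at the top of the scale limits what spread can be seen.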

Other observations

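Over all genes, 54.8% were above background, and 1.92% of those were wide. Interferon-stimulated genes, which cells switch on against viruses, were above background in 32 of 37 and wide in 3. Their median level was 6.19, beside 4.59 over all measured genes and 6.47 over those above background. Immediate early genes, which respond within minutes to stimuli, were above background in 24 of 28 and wide in 4. Heat shock proteins were above background in 26 of 28 and wide in 1, and genes of the unfolded protein response in 27 of 27 and wide in 1. Targets of NRF2, the oxidant-sensing transcription factor, were above background in 24 of 26, and none was wide. Wide counts of 0 or 1 in lists of this size are near the share over all genes.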
